A study of Mus musculus with 16 samples.

Results

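The myosin thick filament genes and titin were followed here across the H3K27Ac and lamin A/C peak lists of heart muscle cells with and without desmin. The group holds 8 genes: the myosin heavy chain genes Myh6, Myh7 and Myh7b, the light chain genes Myl2 and Myl3, the myosin binding protein C gene Mybpc3, the light chain kinase gene Mylk3 and the titin gene Ttn. They were chosen by name, for what their proteins do. A peak belonged to a gene when the deposited annotation named that gene as the one with the nearest transcription start. By this rule 67 of the 56149 peaks in the 8 lists belonged to the group, 57 of them H3K27Ac peaks and 10 lamin A/C peaks, and the 8 genes were among 11473 genes with a peak in any list.

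Chromatin immunoprecipitation with sequencing (ChIP-seq) was done on primary adult cardiomyocytes (ACM) from hearts of 3-month-old mice of a 129SV background, released by perfusion with enzymes. The 4 groups were Des+/+ mice, which have desmin, and Des-/- mice, which lack it, each either without exercise (basal) or after swimming as a mild stress (swim). Each group had 1 H3K27Ac library and 1 lamin A/C library, made from pooled chromatin of several mice, and an input library for each. Values for the 4 groups are given below in the order Des+/+ basal, Des-/- basal, Des+/+ swim, Des-/- swim wherever the group is not named. With 1 library per group no test between groups was possible, and every interval below is an exact 95% Poisson interval of a peak's height that covers counting error alone. In the study's methods the short names Des+/+ and Des-/- stand for mice that also carry αMHC-GFP, a green fluorescent protein reporter driven by the promoter of Myh6, and the ChIP text does not say again whether these mice carried it. Reads from a reporter copy of that promoter and from the gene itself cannot be told apart. Under the H3K27Ac peaks of Myh6 the input height was 2 to 4 reads, against list medians of 3 to 5 reads.

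The thick filament of the sarcomere is built of myosin, whose heavy chains carry the motor that pulls on actin and whose light chains stiffen and tune the lever arm. Myosin binding protein C lies along the filament and limits how many heads are free to work, and titin, the largest known protein, spans from the Z-disc to the M-band and sets the passive stiffness of the muscle. In the adult mouse heart α-myosin heavy chain (Myh6) is the main motor, while β-myosin heavy chain (Myh7) belongs to the fetal and the stressed heart. H3K27Ac marks active promoters and enhancers, and lamin A/C is a filament protein of the nuclear envelope that contacts chromatin, often at silent regions.

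The sequences just upstream of a few of the starts are given first, because the acetylated regions were arranged around them. Each is the stretch of 250 bases before the start, taken from RefSeq's promoter table (for Myl2, from the RefSeq genome before the start used in the lists), build GRCm38, and written 5′ to 3′ on the strand of the gene. Myh6 and Myh7 are shown as neighbours in the genome of which only the former had a peak over or beside its start, Myl2 as a start without a peak in Des-/- swim, and Myl3 and Ttn as starts that kept one there. The capitals mark exact matches, on either strand, to an M-CAT element (CATTCC, read by TEAD factors), a CArG box (read by SRF) or a MEF2 box.
Myh6, chr14:54966608-54966857, minus strand: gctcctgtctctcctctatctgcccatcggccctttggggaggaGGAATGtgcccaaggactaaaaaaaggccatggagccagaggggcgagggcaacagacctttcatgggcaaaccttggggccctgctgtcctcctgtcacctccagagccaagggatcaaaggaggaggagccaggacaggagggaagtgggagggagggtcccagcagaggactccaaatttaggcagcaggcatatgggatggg
Myh7, chr14:54994627-54994876, minus strand: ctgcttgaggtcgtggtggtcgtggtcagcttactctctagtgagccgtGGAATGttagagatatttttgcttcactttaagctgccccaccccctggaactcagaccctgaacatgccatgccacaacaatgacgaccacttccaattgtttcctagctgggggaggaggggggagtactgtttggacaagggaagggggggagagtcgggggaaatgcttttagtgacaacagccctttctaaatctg
Myl2, chr5:122100701-122100950, plus strand: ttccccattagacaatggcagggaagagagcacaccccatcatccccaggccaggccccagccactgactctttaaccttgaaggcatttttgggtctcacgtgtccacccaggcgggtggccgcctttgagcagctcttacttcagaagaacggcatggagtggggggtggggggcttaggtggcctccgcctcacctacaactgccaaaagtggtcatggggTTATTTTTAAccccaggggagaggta
Myl3, chr9:110763428-110763677, plus strand: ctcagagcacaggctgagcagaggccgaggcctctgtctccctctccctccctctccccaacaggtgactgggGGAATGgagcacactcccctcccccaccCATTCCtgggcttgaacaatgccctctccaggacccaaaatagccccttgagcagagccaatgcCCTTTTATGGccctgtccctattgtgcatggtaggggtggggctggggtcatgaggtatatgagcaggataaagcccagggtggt
Ttn, chr2:76982548-76982797, minus strand: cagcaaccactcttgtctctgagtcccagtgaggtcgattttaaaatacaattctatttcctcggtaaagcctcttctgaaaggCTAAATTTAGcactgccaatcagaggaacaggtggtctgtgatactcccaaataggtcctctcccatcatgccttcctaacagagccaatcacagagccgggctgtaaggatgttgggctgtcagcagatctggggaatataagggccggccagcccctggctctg

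An M-CAT element was found upstream of 4 of the 8 genes (Myh6, Myh7, Myl3 and Mylk3), and 12.6% of 32851 upstream windows of the same length held one. The MEF2 box was found upstream of 3 of 8 (Myl2, Mybpc3 and Ttn), against 2.92% of all windows, and the CArG box upstream of Myl3 alone, against 1.47%. The GATA element AGATAA was found upstream of Myh7b alone (9.99% of all windows) and a TATA box spelled TATAAA upstream of none (12.4%). An E box (CANNTG, not capitalised above) was found upstream of 7 of 8, and of 66.2% of all windows. None of these motifs overlapped another in the windows printed. A match of letters shows no binding, and the M-CAT element of Myh6 lies 201 to 206 bases before its start while that of Myh7, a start with no peak, lies 196 to 201 bases before.

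The 3 heavy chain genes also host a microRNA each in an intron, and one of these names recurs below as the deposited nearest gene of lamin A/C peaks. Their mature sequences from RefSeq are printed with the seed, bases 2 to 8, in capitals.
mmu-miR-208a-3p, in Myh6: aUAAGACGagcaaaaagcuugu
mmu-miR-208b-3p, in Myh7: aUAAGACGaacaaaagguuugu
mmu-miR-499-5p, in Myh7b: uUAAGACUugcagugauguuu
The seeds of miR-208a and miR-208b were identical.

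By the nearest start, all 8 genes had an H3K27Ac peak in the basal state, in both genotypes, and only 3 had one after swim in Des-/-. The group held 20 peaks (Des+/+) and 21 peaks (Des-/-) in the basal lists and 12 and 4 peaks in the swim lists. Summed over the group these peaks were 25418, 26027, 14301 and 5114 bp wide in the same order, which was 0.148%, 0.142%, 0.131% and 0.049% of the sequence covered by each list. The Des-/- swim library stood apart from the others at these genes, while the Des+/+ and Des-/- basal libraries lay close together.

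**Figure D1:**
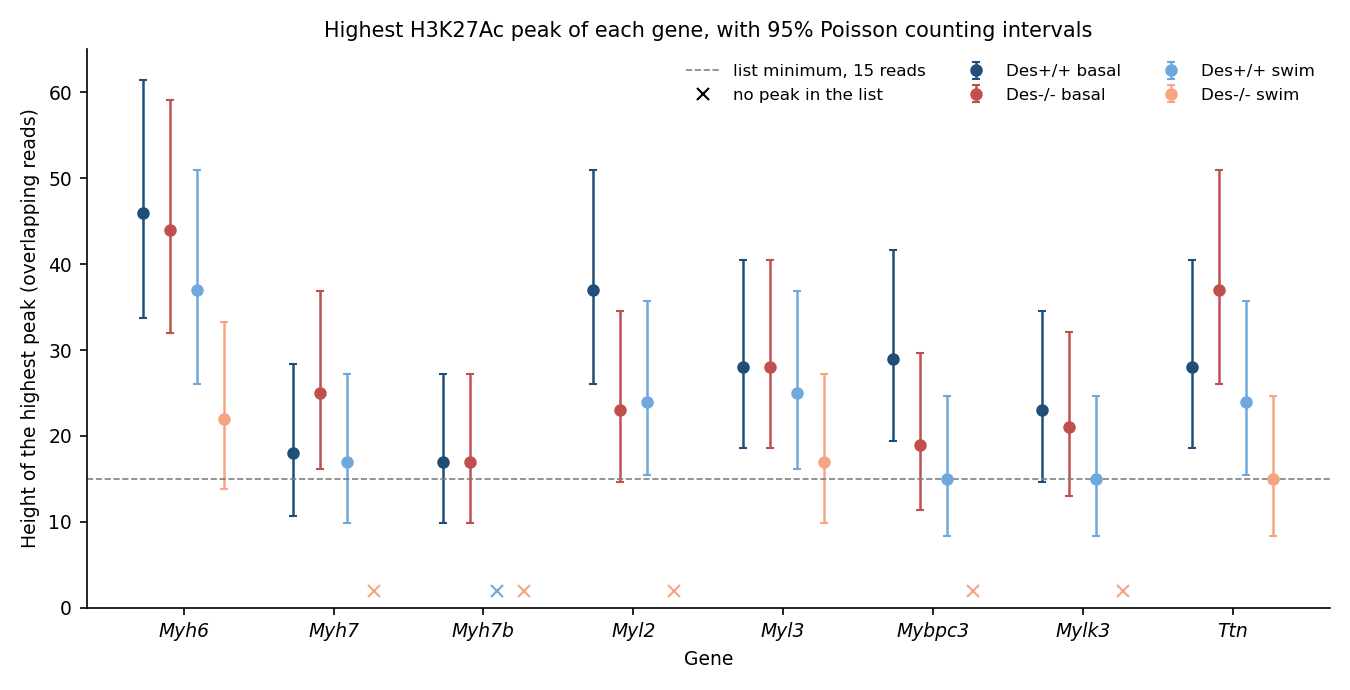
Height of the highest H3K27Ac peak of each gene in each list, in overlapping reads, with exact 95% Poisson intervals and 1 library per point. Crosses mark lists with no peak for the gene and the dashed line marks the lowest height in the lists, 15 reads. All 8 genes have a point in both basal lists, and only Myh6, Myl3 and Ttn have one in Des-/- swim, at 22, 17 and 15 reads.

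The lists as a whole set the scale for these numbers. They held 15757, 16638, 11157 and 10407 H3K27Ac peaks, and no list kept a peak under 15 reads, so a gene without a peak may have stayed under that height or failed against its input. The median height over all peaks was 23, 23, 20 and 23 reads and the median input height 3, 3, 3 and 5 reads. The Des-/- swim list therefore had the highest input. The 4 peaks of the group listed in it had input heights of 3 or 4 reads. Input at the genes without a peak there is not in the lists, so these heights do not describe those genes. Des, the deleted gene, was acetylated at its promoter in all 4 groups, at up to 30, 46, 24 and 37 reads, so these lists do not check the genotype labels. Of 10 cardiomyocyte markers fixed for the purpose (such as Actc1, Tnnt2 and Ryr2), 10, 10, 10 and 7 had a peak, and of 6 skeletal muscle markers and 6 smooth muscle and pericyte markers none had one in any H3K27Ac list.

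Between the genotypes the group differed most after swim. Of the 7 genes with a peak in Des+/+ swim, 4 had none in Des-/- swim (Myh7, Myl2, Mybpc3 and Mylk3), where 17.6% of all genes with a peak in Des+/+ swim had none. In the other direction 0 of 3 genes lacked a peak, where 16.3% of all genes did. Peak by peak, 8 of the 12 peaks in Des+/+ swim had no overlapping peak in Des-/- swim (66.7%), against 27% of all peaks, and 0 of the 4 in Des-/- swim lacked a partner in Des+/+ swim, against 22.2%. The summed width of the group's peaks in Des-/- swim was 35.8% of that in Des+/+ swim, and that of all peaks 95.6%.

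The 3 genes that kept a peak were lower in Des-/- swim. Myh6 was at 37 reads in Des+/+ swim and 22 in Des-/- swim (intervals 26.1 to 51.0 and 13.8 to 33.3), Myl3 at 25 and 17 reads, and Ttn at 24 and 15 reads. These were ratios of 0.595, 0.68 and 0.625, while the highest peak of the median gene was 1.12 times as high in Des-/- swim. Relative to the median gene all 3 passed the limit of 1.5-fold used here for a lower peak, as did 4.17% of 5904 genes, and none passed it for a higher peak, as did 3.34%. The counting intervals of each of the 3 genes overlapped between these lists, and at a limit of 2-fold none of the 3 was called.

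Without exercise the genotypes differed less. No gene of the 8 had a peak in only 1 of the basal lists, where 6.97% of all genes with a peak in Des+/+ had none in Des-/- and 11.9% in the other direction. Of the 20 peaks in Des+/+ basal 5 had no partner in Des-/- basal (25.0%, against 14.5% of all peaks), and of the 21 in Des-/- basal 6 had no partner (28.6%, against 19.7%). The highest peak relative to the median gene was lower by the limit for Myl2 (37 and 23 reads) and Mybpc3 (29 and 19 reads), a call made for 3.02% of 8773 genes, and was higher by it for no member, against 3.03% of genes. Myh7 at 18 and 25 reads and Ttn at 28 and 37 reads lay the other way, within the limit.

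The swim lists held fewer peaks of the group than the basal lists in both genotypes, and fewest without desmin. In Des+/+ the group went from 20 to 12 peaks and 9 of the 20 basal peaks had no partner in swim (45.0%, against 39.0% of all peaks). Of the 8 genes Myh7b alone had no peak left in swim, where 27.4% of all genes had none. In Des-/- the group went from 21 to 4 peaks and 17 of the 21 had no partner (81.0%, against 44.8%). Here 5 of 8 genes had none left, Myh7, Myh7b, Myl2, Mybpc3 and Mylk3, where 32.3% of all genes had none. With the lists cut to equal numbers of their highest peaks, an alternative chosen after seeing the data, these 5 genes became 3, the 4 missing in Des-/- swim against Des+/+ swim became 2, and Myh7b was no longer counted. The cut also left fewer genes with a peak to compare. The 17 of 21 peaks without a partner became 8 of 11 in the same way. They became 11 of 15 when peaks were assigned by overlap with the gene body. The 8 of 12 peaks of Des+/+ swim without a partner in Des-/- swim became 6 of 10 with equal numbers and 5 of 9 by gene body. Shares over all peaks under these settings are not given here.

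No member peak of the swim lists was new. All 12 Des+/+ swim peaks of the group and all 4 Des-/- swim peaks overlapped a peak in the basal list of their genotype, while 8.39% and 6.28% of all swim peaks did not, and no member had a first peak in swim, as 4.49% of genes with a peak did in Des+/+ and 4.45% in Des-/-. The 7 genes present in both Des+/+ lists were lower in swim, as were most genes, with a median ratio of 0.804 against 0.714 for all genes. None of the 7 was called lower (3.08% of genes) or higher (4.22%). In Des-/- the 3 remaining genes had a median ratio of 0.50, against 0.737 for all genes, and Ttn was called lower (3.00% of genes) and none higher (4.39%). Ttn, at 37 reads (26.1 to 51.0) in Des-/- basal and 15 reads (8.40 to 24.7) in Des-/- swim, was the only 1 of 21 comparisons of highest peaks in which the counting intervals did not overlap.

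**Figure D2:**
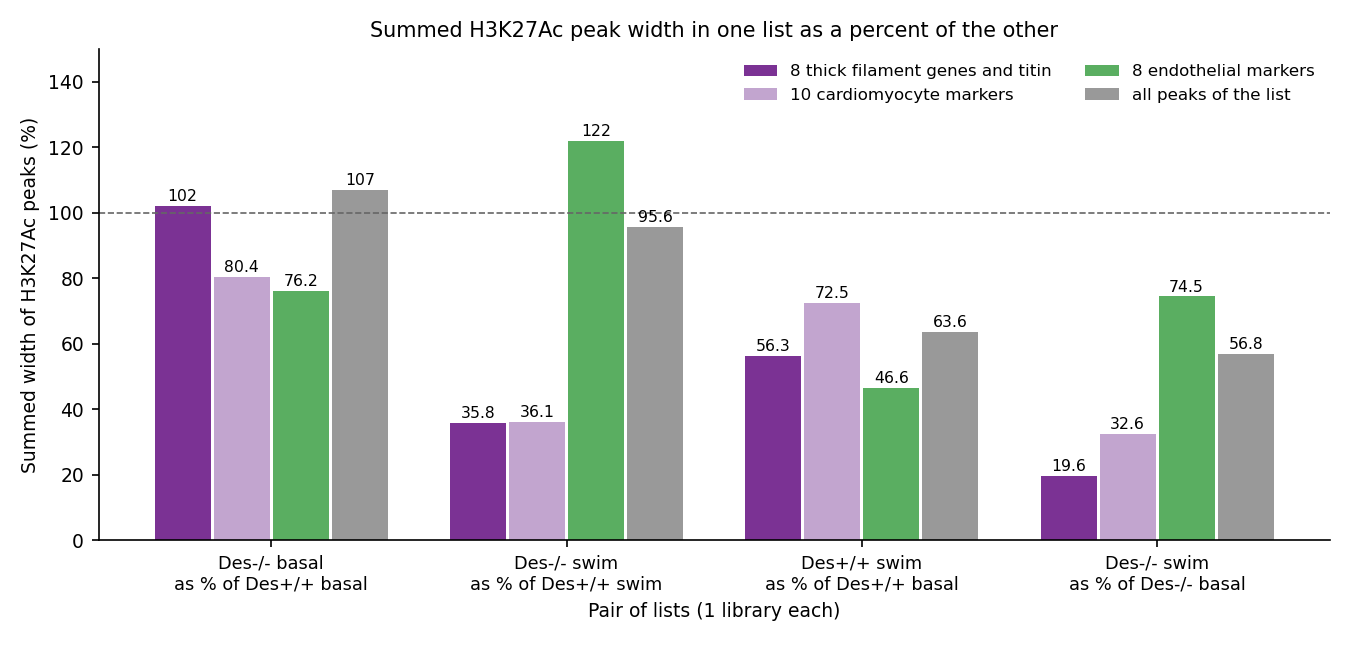
Summed width of H3K27Ac peaks in one list as a percent of another (vertical axis), for the 4 pairs of lists, with bars for the 8 genes, 10 cardiomyocyte markers, 8 endothelial markers and all peaks; each bar compares 1 library with 1 library. In Des-/- swim as a percent of Des+/+ swim the thick filament genes stand at 35.8 and the cardiomyocyte markers at 36.1, while the endothelial markers stand at 122 and all peaks at 95.6.

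Markers of cardiomyocytes and of other cells are given beside the result. The summed width of the cardiomyocyte marker peaks was 65126, 52339, 47192 and 17047 bp over the 4 groups, and Actc1, Actn2 and Ckm were without a peak in Des-/- swim. That of the 8 endothelial markers was 34104, 25988, 15896 and 19352 bp, with a peak at 7, 7, 6 and 5 of them. Vwf had no peak in any list, Cdh5 had none in swim, and Tek had none in Des-/- swim. From Des+/+ swim to Des-/- swim the cardiomyocyte markers thus went to 36.1% and the endothelial markers to 122%. In height the markers with a peak in both lists had median ratios of 0.808 (7 cardiomyocyte) and 1.08 (5 endothelial). The ratio for the 3 thick filament genes was 0.625. Of 8 fibroblast markers 1, 3, 0 and 0 had a peak, of 6 leukocyte markers 1, 1, 0 and 1 (Cd14), and of 4 atrial markers 1, 1, 0 and 1 (Myl4). Fewer cardiomyocytes among the cells and less acetylation per cardiomyocyte cannot be told apart in these libraries, and the part of the cell mixture in the result was not tested.

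Peaks of the group that overlapped across lists, or were joined by a peak of another gene, formed 23 regions. Of these, 3 were present in all 4 H3K27Ac lists, at the starts of Myh6, Myl3 and Ttn, 7 in 3 lists, 3 in 2 lists and 10 in 1 list. Both basal lists shared 13 regions. In Des+/+ swim but not in Des-/- swim there were 7 regions, and in Des-/- swim but not in Des+/+ swim there were 0. Most peaks lay near starts: 16 of 20 and 15 of 21 in the basal lists, and 10 of 12 and 4 of 4 in the swim lists, were within 3 kb of a start, which was 80.0%, 71.4%, 83.3% and 100%, against 71.5%, 71.2%, 74.4% and 77.3% of all peaks.

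Among the heavy chains, Myh6, the α chain, had the highest H3K27Ac peak of the group in each of the 4 lists. Its summed width was the largest of the group in both Des-/- lists, at 9795 bp (basal) and 3359 bp (swim), while in Des+/+ that of Myl2 was larger, at 6818 against 5373 bp (basal) and 3846 against 3329 bp (swim). Its gene spans chr14:54941921-54966927 on the minus strand. In Des+/+ basal a peak of 46 reads (input 2) covered the start and the first part of the gene at chr14:54962454-54966654, a width of 4201 bp, with a second peak of 15 reads upstream at chr14:54966961-54968132. In Des-/- basal the main peak of 44 reads (input 2) ran over 8808 bp, chr14:54963841-54972648, the rank 4 in width among the 16638 peaks of that list, and a smaller peak of 18 reads lay inside the gene at chr14:54962605-54963591. After swim the main peak had 37 reads in Des+/+ (chr14:54964282-54966585) and 22 reads in Des-/- (chr14:54964536-54966580), with upstream peaks of 25 and 16 reads.

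Relative to its list the main Myh6 peak stood at percentile 87.5, 83.9, 88.0 and 45.8 of height in the 4 lists, with tied peaks at their mean rank. So it stood in the upper part of 3 lists and near the middle of the Des-/- swim list. Of the upstream bases printed above, 47 of 250 lay under a peak in Des+/+ basal, all 250 in Des-/- basal and 0 in both swim lists, where the sequence fell in the gap between the peak upstream and the peak inside the gene.

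The wide Des-/- basal peak joined what were separate peaks elsewhere. The antisense RNA gene Mhrt starts between Myh6 and Myh7, and a peak assigned to it lay at chr14:54968614-54971884 in Des+/+ basal (33 reads), chr14:54968720-54971885 in Des+/+ swim (36 reads) and chr14:54968695-54971012 in Des-/- swim (26 reads). Over the whole stretch from the end of Myh6 to the start of Myh7 the peaks of any name covered 8644, 9795, 6495 and 5677 bp, with highest points of 46, 44, 37 and 26 reads. In Des-/- swim the Mhrt peak was thus higher than the main Myh6 peak. Peaks here were assigned to Mhrt or to Myh6 by distance alone.

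**Figure D3:**
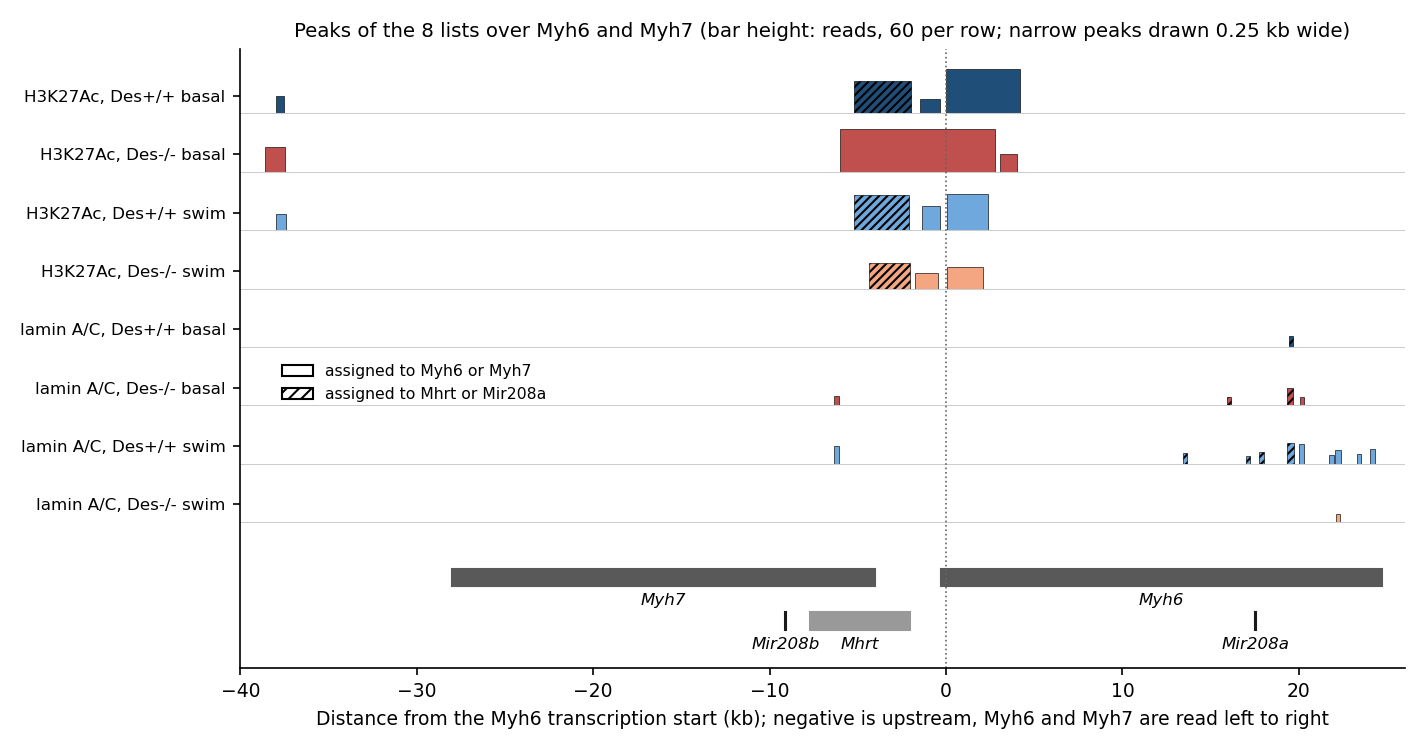
Peaks of the 4 H3K27Ac and 4 lamin A/C lists over Myh6 and Myh7, by distance in kb from the Myh6 start, with bar height in proportion to reads and hatched bars for peaks the deposited annotation gives to Mhrt or Mir208a (peaks given to Ngdn, upstream of Myh7, are left out). H3K27Ac peaks lie over or beside the Myh6 start and the Mhrt start in every list, joined as 1 peak of 8808 bp in Des-/- basal, and never at the Myh7 start. Lamin A/C peaks lie inside Myh6, 9 of them in Des+/+ swim, and in the last part of Myh7 in Des-/- basal and Des+/+ swim.

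Myh7, the β chain, had no H3K27Ac peak at its start in any list, and none of its 250 upstream bases printed above lay under one. The peak assigned to it lay upstream, at chr14:55004162-55004598 in Des+/+ basal (18 reads), chr14:55004127-55005234 in Des-/- basal (25 reads) and chr14:55004073-55004601 in Des+/+ swim (17 reads). Its region, with neighbouring peaks assigned to Ngdn, is centred 10027 bp before the Myh7 start. That region held no peak in Des-/- swim. The last part of the Myh7 gene lay under a peak named for Mhrt or Myh6 in every H3K27Ac list. In Des-/- swim this was the Mhrt peak of 26 reads (chr14:54968695-54971012), which the counts for Myh7 leave out.

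Myh7b, the slow-type heavy chain that hosts miR-499, had a low promoter peak of 17 reads in both basal lists, at chr2:155611187-155612091 in Des+/+ and chr2:155611125-155611540 in Des-/-. A second peak of 16 reads lay at chr2:155606104-155606453 in Des-/- basal. Both swim lists had none. With an interval of 9.90 to 27.2 reads at a height of 17, a fall below the list minimum of 15 reads was within counting error.

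Of the light chain genes, Myl2, which encodes the ventricular regulatory light chain, had the most peaks in Des+/+ basal and none in Des-/- swim. It had 5, 3, 2 and 0 peaks in the 4 lists. The peak that begins at the start used in the lists had 30 reads in Des+/+ basal (chr5:122101011-122104186), 23 in Des-/- basal (chr5:122101001-122102731) and 24 in Des+/+ swim (chr5:122100994-122103395). It was widest in Des+/+ basal, at 3176 bp, and 1731 and 2402 bp wide in the other lists.

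A second region of Myl2 was centred 7070 bp upstream, in sequence that the deposited annotation calls distal intergenic. There the peak had 37 reads in Des+/+ basal (chr5:122093156-122094551), 23 in Des-/- basal (chr5:122093154-122094562) and 21 in Des+/+ swim (chr5:122093166-122094609). Its width differed little, from 1396 to 1444 bp. Between these regions Des+/+ basal alone had 3 low peaks, of 18, 17 and 16 reads. The call of a lower Myl2 peak in Des-/- basal compared 2 heights of the same upstream region, and both regions were lower there than in Des+/+ basal.

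Myl3, the essential light chain of ventricle and slow muscle, was 1 of the 3 genes with a peak assigned to them in Des-/- swim. Its start peak had 28 reads in Des+/+ basal (chr9:110763665-110764962), 28 in Des-/- basal (chr9:110763677-110764833), 25 in Des+/+ swim (chr9:110763709-110764849) and 17 in Des-/- swim (chr9:110763307-110764501). The peak in Des-/- swim lay about its start and covered all 250 upstream bases printed above, while in the other lists at most 13 of them lay under a peak. A neighbouring peak inside the gene had 27, 21 and 18 reads and was missing from the Des-/- swim list.

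Mybpc3, myosin binding protein C, spans chr2:91118144-91136516 on the plus strand. At its start the peak had 29 reads in Des+/+ basal (chr2:91118078-91118832), 17 in Des-/- basal (chr2:91118083-91118730) and 15 in Des+/+ swim (chr2:91118286-91118730), and none was listed in Des-/- swim. A peak farther inside the gene had 19 reads in both basal lists, with inputs of 5 and 3 reads, and was absent in swim. A further peak, of 18 reads, lay upstream in Des+/+ basal. At the start itself the order was therefore Des+/+ basal above Des-/- basal and Des+/+ swim, and the intervals of the extremes (19.4 to 41.6 and 8.40 to 24.7) overlapped.

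Mylk3, the cardiac kinase that phosphorylates the regulatory light chain, had its main peak at 23 reads in Des+/+ basal (chr8:85364160-85365249), 21 in Des-/- basal (chr8:85364113-85365276) and 15 in Des+/+ swim (chr8:85364591-85365227). A second region, centred 14804 bp upstream of that start and inside the annotated gene, had 17 reads in Des+/+ basal and 16 in Des-/- basal. Another, of 18 reads, was in Des-/- basal alone. None was listed in Des-/- swim, where Myl2, the substrate gene, had none either.

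Ttn, the titin gene, spans 278568 bp at chr2:76703980-76982547 on the minus strand, and its acetylation was at the start. In Des+/+ basal a peak of 28 reads and 2655 bp (chr2:76979892-76982546) lay inside the start, with peaks of 25 and 15 reads upstream. In Des-/- basal the peak at the start had 37 reads (chr2:76981582-76982570), with 20 reads beside it inside the gene and 25 reads upstream. In Des+/+ swim the start peak had 24 reads (chr2:76980411-76982511), with 17 reads farther inside and 21 reads upstream. In Des-/- swim a single peak of 15 reads, the list minimum, was left (chr2:76981965-76982524), 560 bp wide.

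Summed per list, the Ttn peaks were 3826, 3864, 3223 and 560 bp wide. Swim left most of this width in Des+/+ and little in Des-/-. Away from the start Ttn had 1 peak in all 4 lists, of 17 reads and an input of 4 in Des-/- basal (chr2:76806856-76807221), an exon 175417 bp into the gene. The 3 genes whose summed H3K27Ac widths were nearest to those of Ttn over the 4 lists, among 412 genes with at least 5 peaks in Des+/+ basal, were Limch1, Gpam and Sh3bp5. Their Euclidean distances on the scale of log2(width in bp + 1000) were 0.33, 0.382 and 0.396. Ttn itself had 3 peaks in Des+/+ basal, so genes with as few peaks as Ttn were not among the candidates.

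**Figure D4:**
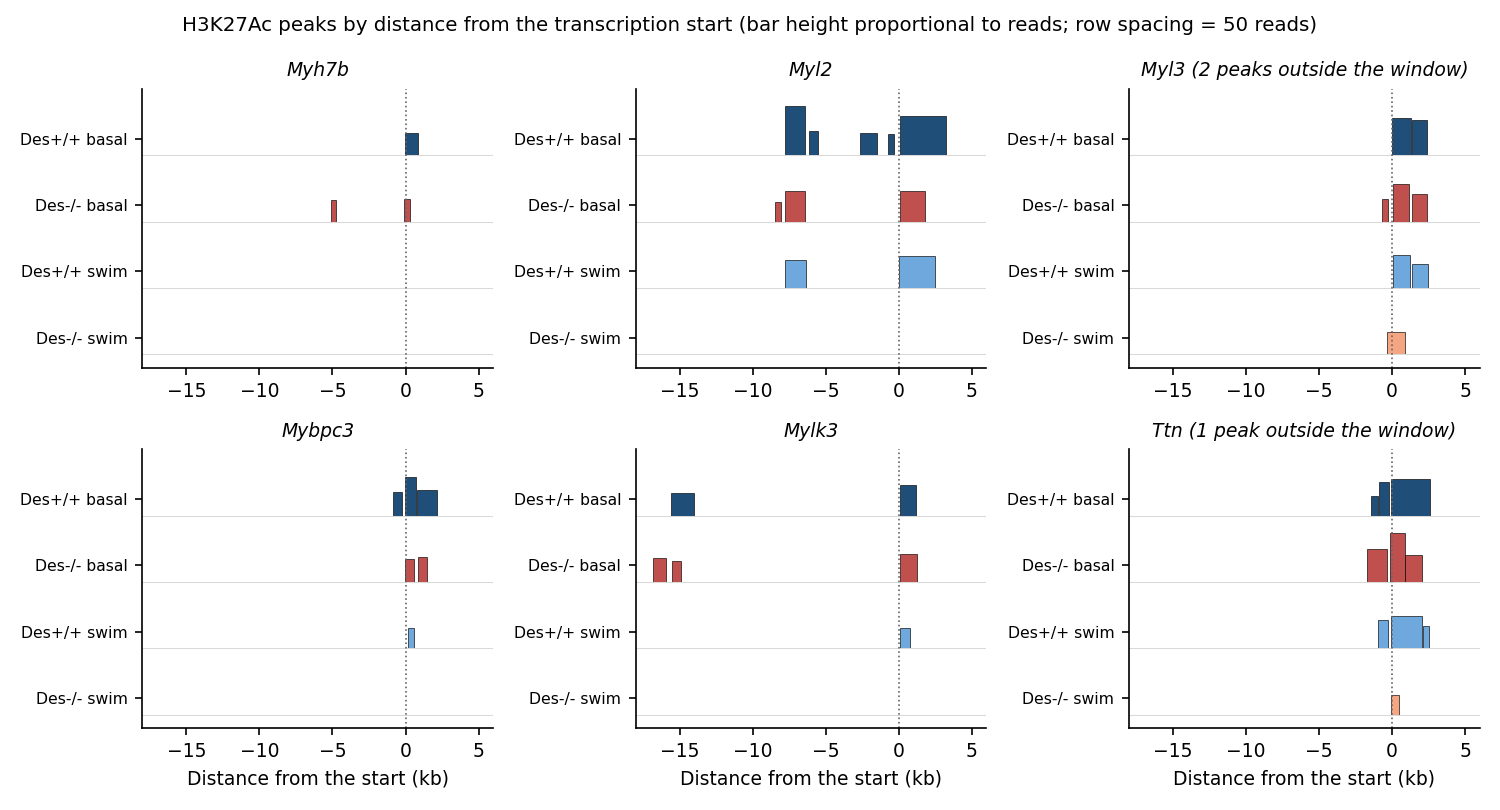
H3K27Ac peaks of the other 6 genes by distance in kb from the transcription start used in the lists, 1 row per list, with bar height in proportion to reads (panel titles count the peaks outside the window). Each gene has a peak over or just inside its start in the upper 3 rows, except for Myh7b in Des+/+ swim, and the Des-/- swim row holds 1 peak at Myl3 and 1 at Ttn.

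Other myosin, M-band and titin partner genes were counted from a list of 51. Of these 26 (Des+/+) and 27 (Des-/-) had an H3K27Ac peak in the basal lists and 21 and 18 in the swim lists, and their summed width in Des-/- swim was 51.3% of that in Des+/+ swim, against 95.6% for all peaks. From Des+/+ swim to Des-/- swim 5 of 21 no longer had a peak (23.8%), near the 17.6% of all genes: Myl6b, an alkali light chain, Trim54 and Trim63, ubiquitin ligases of the sarcomere, and the titin-binding ankyrin repeat proteins Ankrd1 and Ankrd23. Of the 18 with a peak in Des-/- swim 2 had none in Des+/+ swim, Myl4, the atrial light chain, and Obsl1, a cytoskeletal adaptor. The 16 genes in both had a median height ratio of 0.898, against 1.12 for all genes and 0.625 for the 3 thick filament genes.

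Of these 16 genes, 10 had a lower highest peak in Des-/- swim than in Des+/+ swim and 6 a higher one, as deposited. Among the lower ones Speg, a striated muscle kinase, went from 46 to 17 reads, Fhl2, which binds titin, from 29 to 17, Nbr1, an autophagy receptor that binds the titin kinase, from 56 to 22, and Rbm20, the splicing factor of titin, from 26 to 21. Smaller differences the same way were found, among others, at Myom1, the M-band crosslinker of myosin (112 and 103 reads), Tcap, which caps titin at the Z-disc (23 and 18), Trim55 (32 and 29), Ppp1r12b (18 and 16) and the nonmuscle light chain gene Myl12a (22 and 18). The 6 higher ones were the nonmuscle myosin genes Myh9 (28 and 37 reads), Myl6 (40 and 45) and Myl12b (35 and 44), the smooth muscle light chain kinase gene Mylk (25 and 28), the myosin phosphatase subunit gene Ppp1r12a (31 and 34) and Unc45b, a myosin chaperone of striated muscle (34 and 39). Sarcomeric and nonmuscle genes were thus present on both sides. The fast skeletal heavy chains Myh1, Myh2, Myh4 and Myh8 and the smooth muscle heavy chain Myh11 had no H3K27Ac peak in any list.

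Lamin A/C was found at 3 of the 8 genes. The thick filament genes and titin had 0, 2, 7 and 1 lamin A/C peaks in the 4 groups, of 188, 831, 635 and 536 in the lists, in which no height was under 8 reads. Myh6 had 5 of the 7 in Des+/+ swim, of 15, 10, 14, 9 and 20 reads over inputs of 1 to 5 reads. The remaining peaks of Des+/+ swim were at Myh7 (chr14:54972684-54972993, 18 reads) and Myl3 (chr9:110766541-110766760, 11 reads). Des-/- basal had a peak of 8 reads at Myh6 and of 9 reads at Myh7 (chr14:54972711-54972985), and Des-/- swim a peak of 8 reads at Myh6 (chr14:54944320-54944519). Myh7b, Myl2, Mybpc3, Mylk3 and Ttn had none in any lamin A/C list.

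These lamin A/C peaks were rarely shared, like those of the lists as a whole. Of the 7 in Des+/+ swim 6 had no partner in Des-/- swim (92.3% of all peaks had none) and 7 had none in Des+/+ basal (95.7%). Both peaks of Des-/- basal lacked a partner in Des+/+ basal (96.5%) and in Des-/- swim (92.2%). They did lie inside peaks of Des+/+ swim, of 20 reads at Myh6 (chr14:54946340-54946616) and 18 reads at Myh7 (chr14:54972684-54972993). That pair differs in both genotype and condition, and its share over all peaks was not counted. A height of 8 reads has an interval of 3.45 to 15.8 reads.

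More lamin A/C peaks lay inside Myh6 than its name shows, because the deposited annotation gives those near the microRNA to Mir208a. With them the body of Myh6 held 1, 3, 9 and 1 lamin A/C peaks. In Des+/+ swim they reached from 13550 to 24178 bp into the gene, with heights of 8 to 21 reads. Each of these peaks touched an exon, and 100%, 74.7%, 66.0% and 100% of their bases were exonic, while exons make up 26.9% of Myh6. Of all lamin A/C peaks in the lists 13.8%, 16.1%, 31.0% and 12.3% touched an exon, and 11.1%, 11.6%, 26.5% and 8.51% of their bases were exonic. No lamin A/C peak over the 8 genes overlapped an H3K27Ac peak of the same group.

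The exon stretch under a lamin A/C peak in 3 lists is printed to show what these peaks cover. The peak in Des+/+ basal had 11 reads, that in Des-/- basal 18 reads (chr14:54946947-54947321) and that in Des+/+ swim 21 reads (chr14:54946925-54947313). The sequence is that under the Des+/+ basal peak in GRCm38, and all of its 232 bases are exonic, marked by capitals.
Myh6, chr14:54946973-54947204, minus strand: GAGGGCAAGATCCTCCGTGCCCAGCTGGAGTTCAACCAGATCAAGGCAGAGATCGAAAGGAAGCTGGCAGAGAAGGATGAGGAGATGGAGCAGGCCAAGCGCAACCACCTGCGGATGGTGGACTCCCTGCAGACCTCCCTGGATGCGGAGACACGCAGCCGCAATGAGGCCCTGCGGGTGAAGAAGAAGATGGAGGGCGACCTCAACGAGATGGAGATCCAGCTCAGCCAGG
It codes for part of the coiled-coil rod of the α chain. In this stretch 77 of 133 windows of 100 bases occur letter for letter in Myh7, against 614 of 24908 windows over the whole of Myh6. The Myh7 peak of Des+/+ swim had 101 of 211 such windows in common with Myh6. Reads of such windows fit both genes, and the aligner's default places each at 1 of them. The split between the neighbours is therefore uncertain for lamin A/C peaks that hold such windows. Not all Myh6 peaks held them. In Des+/+ swim the peak of 14 reads had 101 of 211 in common with Myh7, and that of 20 reads had 0 of 178.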

How the data were processed

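Per the labels and the study's methods, single-end reads were aligned by the authors to GRCm38 (mm10) with Bowtie2 2.4.4, handled with SAMtools 1.13, and peaks were called in each precipitated library against its own input with a laboratory script and annotated with ChIPseeker 1.36.0. The script's read extension, scaling of the input and treatment of duplicate reads are not given in the sources used here, and the read total of each library is not in the lists, so depth is seen only as peak height. The deposited height of a peak and of its input is a coverage signal in whole overlapping reads, with a minimum of 15 for H3K27Ac and 8 for lamin A/C. Deposited p-values, false discovery rates and fold changes were not used. Other deposited values used were peak width and the distance to the nearest start.

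The 8 lists were read in Python 3.11.15 with pandas 2.3.3, and overlaps of at least 1 bp were computed for the 4 pairs of groups per antibody. Heights were compared as the ratio of a gene's highest peaks divided by the median ratio over all genes in both lists, with a limit of 1.5-fold. All 8 genes are named. The genes, the list of 51 related genes and the markers were chosen with earlier results of these data known. Gene models were GENCODE M21, in which 18042 of the 18189 transcripts named in the lists have the same version. The search for overlapping partners and the calls by height ratio were tested on simulated lists, and the other steps were not. Other settings of height, assignment, list size, overlap, fold limit, centring and promoter distance were tried.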

Additional observations from a re-analysis of the deposited data

Results flagged for a closer look

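At Ttn the highest H3K27Ac peak of Des-/- relative to Des+/+ had a ratio of 1.32 in the basal state (37 against 28 reads) and 0.625 after swim (15 against 24 reads), so the genotypes stood in the opposite order in the conditions. At Myh7 the ratio was 1.39 in the basal state (25 against 18 reads). After swim it was at most 0.824, if the missing peak of Des-/- swim is set just under the list minimum of 15 reads. If that peak failed against its input instead, its height is unknown and this limit does not hold. Each of these ratios compares 1 library with 1 library, and the difference between the conditions was not tested.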

How the results depend on the processing

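With minimum heights of 20 reads (H3K27Ac) and 10 reads (lamin A/C) the group had 9 (Des+/+) and 11 (Des-/-) H3K27Ac peaks in the basal lists, 7 and 1 in the swim lists, and 0 lamin A/C peaks in Des-/- basal and in Des-/- swim. H3K27Ac peaks without a partner then numbered 1 and 2 between the basal lists (Des+/+ and Des-/-), 3 of Des+/+ basal against swim, 1 of Des+/+ swim against basal and 10 of Des-/- basal against swim, and the lamin A/C peaks of Des-/- basal without one numbered 0. Counting peaks by overlap with the gene body gave 11, 15, 9 and 4 H3K27Ac peaks in the 4 lists. The same rule gave 1, 4 and 11 lamin A/C peaks in the basal lists (Des+/+, Des-/-) and in Des+/+ swim. Without a partner were then 0 and 3 H3K27Ac peaks between the basal lists, 5 of Des+/+ swim against Des-/- swim, 3 of Des+/+ basal and 11 of Des-/- basal against swim, and 10 (Des+/+ swim against Des-/- swim) and 4 (Des-/- basal against swim) lamin A/C peaks. With lists cut to equal numbers of highest peaks there were 10 and 11 H3K27Ac peaks in Des+/+ and Des-/- basal and 0, 4 and 0 lamin A/C peaks in the lists other than Des+/+ basal. Without a partner were then 1 and 8 basal H3K27Ac peaks against swim (Des+/+ and Des-/-), 1 of Des+/+ swim against basal, and 0, 4 and 1 lamin A/C peaks (Des-/- basal against Des+/+ basal, Des+/+ swim against basal, Des-/- basal against swim). A fold limit of 2 called 0 members lower in any pair, and no centring called 3 lower in swim in Des+/+ and 3 in Des-/-. Of genes with no peak left, by alternatives chosen after seeing the data, equal numbers gave 2 (Des-/- swim against Des+/+ swim), 0 (Des+/+ swim against basal) and 3 (Des-/- swim against basal), and the height minimum 1 (Des-/- basal against Des+/+ basal) and 2 (Des+/+ swim against basal). Promoter peaks alone moved none of these gene counts by over 1.5 times, and an overlap of 50% of the shorter peak moved none of the 12 partner counts so far. The causes of the changes were not tested, and shares over all peaks or genes under these settings are not given. Des-/- swim had the fewest H3K27Ac peaks of the group under each of the 3 settings that recounted them (height minimum, gene body and equal numbers), while Des+/+ basal and Des+/+ swim tied at 10 with equal numbers. Depth limits all of this: a peak of 15 reads has an interval of 8.40 to 24.7 reads. No paired analysis was possible because each group had 1 library per antibody.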
